A study of Saccharomyces cerevisiae with 2 samples.

Results

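The transcripts described here are those of 10 components of the high osmolarity glycerol (HOG) pathway of Saccharomyces cerevisiae, out of 6207 genes on the array. They were chosen by open reading frame name and not by any measured value: 5 belong to the Sho1 branch (MSB2, HKR1, SHO1, STE50 and STE11), 3 to the Sln1 branch (SLN1, YPD1 and SSK1), and PBS2 and HOG1 are the kinases on which both branches end. The cells were a mutant named msn2/4, which refers to Msn2 and Msn4, transcription factors of the general stress response. They were grown in the rich medium YEPD at 24 °C, and the labels give neither the strain background nor the alleles. A culture was split, 1 part received zymolyase, a glucan-digesting enzyme preparation, at 5 units per ml, the other part received none, and RNA was taken at 3 hours. Both parts carried the mutation and no wild-type strain is analysed here, so no value below measures the effect of the mutation.

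The HOG pathway is the MAP kinase cascade through which yeast answers high external osmolarity, chiefly by making and keeping glycerol. In the Sho1 branch, the mucin-like surface proteins Msb2 and Hkr1 act with the membrane protein Sho1, and the adaptor Ste50 holds the kinase Ste11 to them. In the Sln1 branch, the histidine kinase Sln1 passes phosphate through Ypd1 to the response regulator Ssk1, which in turn governs the kinases Ssk2 and Ssk22. Pbs2 receives both signals and phosphorylates Hog1. In wild-type yeast, digestion of the wall by zymolyase is known to signal through Sho1 branch proteins and Hog1 to the cell wall MAP kinase Slt2. These steps are phosphorylations and protein contacts, whereas the arrays measured transcripts only.

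On array 1 the untreated extract was labelled with Cy5 and the treated one with Cy3, and on array 2 the dyes were swapped between the same extracts. The pair of arrays thus makes 1 replicate, the conditions could not be tested against each other, and every SD is over the 2 hybridisations only. Array 1 gave a log2 ratio for 2428 genes, array 2 for 2918, and 2254 genes (36.3%) had both. The direction of the deposited ratios is not stated in the sources used here. The sign of array 2 was turned because genes that zymolyase is reported to raise, SLT2 and its relative KDX1 among them, had large ratios of opposite sign in the deposited columns; positive ratios are then likely zymolyase over untreated, and this is an assumption. As the sign of array 2 rests on it, the values with array 2 as deposited stand beside each component. With the turn the mean ratio had a median of -0.37 across all genes. The ratios are relative to the RNA extracted, so a change in cell number and a change in RNA per cell cannot be told apart.

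Of the 10 components 7 had a ratio on both arrays, and HKR1, STE11 and SSK1 had none on either. No component passed the limit used for all genes, a mean of at least 2-fold (1 on the log2 scale) with the same sign on both arrays. Over all genes 2.88% passed it as positive and 13.6% as negative, so that a count of 0 among 7 says little about the pathway. HOG1, PBS2, SHO1 and MSB2 had small positive means between 0.31 and 0.49, YPD1 was near 0, and SLN1 and STE50 were negative. The median of the 7 was 0.31, and 5 of them lay above the all-gene median of -0.37. Without the turn the median of the 7 was -0.33, and 2 of them, HOG1 and PBS2, lay above an all-gene median of 0.069. The arrays had the same sign for 3 of the 7 (SHO1, PBS2 and SLN1), a share of 42.9% beside 39.8% of all genes; most genes thus had like signs only without the turn. On array 1 taken alone, HOG1 was past 2-fold as positive (12.8% of all genes were) and STE50, YPD1 and SLN1 as negative (33.3%). On array 2 taken alone and turned, YPD1 was past it as positive (8.43%) and no component as negative (24.6%).

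**Figure D1:**
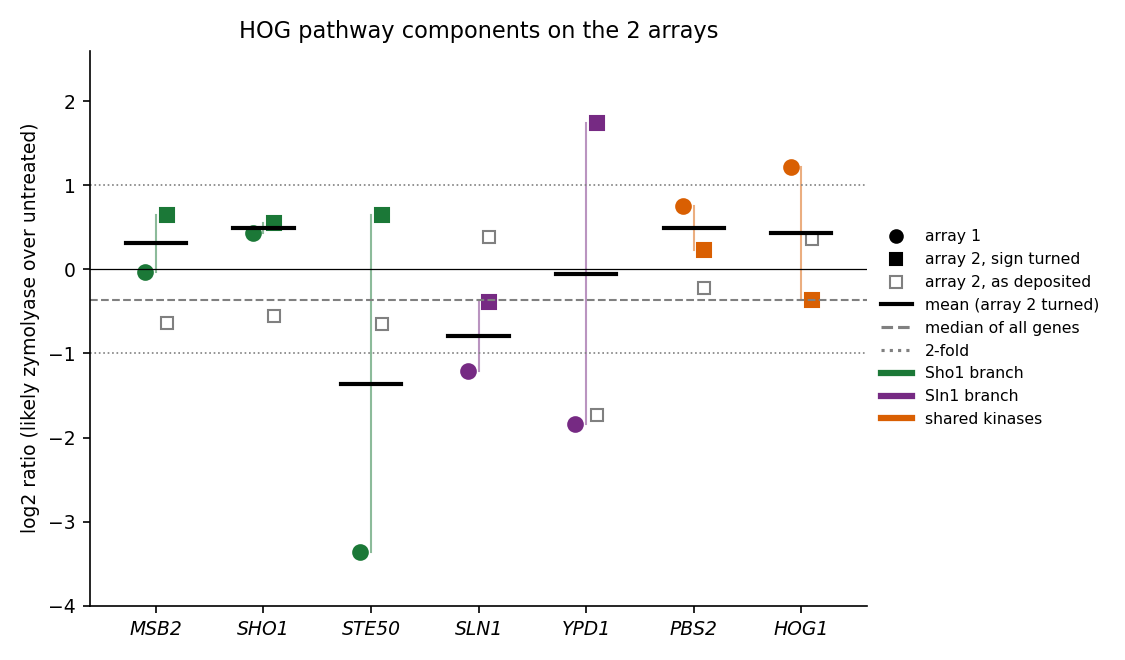
Log2 ratio of the 7 measured HOG pathway components on each array (circles, array 1; filled squares, array 2 with its sign turned; open squares, array 2 as deposited), with the mean as a black bar and the median of all genes as a dashed line. With the turn, SHO1, PBS2 and SLN1 have the same sign on both arrays. MSB2, HOG1, STE50 and YPD1 lie on opposite sides of 0, with STE50 and YPD1 furthest apart.

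Among the surface proteins of the Sho1 branch, SHO1 (YER118C), the membrane protein that gives the branch its name, had ratios of 0.43 on array 1 and 0.55 on array 2. Its mean was 0.49 ± 0.08 (SD, n = 2 arrays), 1.40-fold, the 92.1st percentile of all genes. The arrays differed by 0.12, the smallest difference among the 7 components, and its SD stood beside a median SD of 0.988 over all genes. With array 2 as deposited the values were 0.43 and -0.55, with a mean of -0.060 ± 0.69, so the positive mean of SHO1 exists only with the turn.

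MSB2 (YGR014W), the mucin-like sensor, had ratios of -0.03 on array 1 and 0.64 on array 2. Array 1 was near 0 and array 2 carried the mean of 0.31 ± 0.47. Without the turn that mean was -0.33 ± 0.43. HKR1, the other mucin-like sensor, had no ratio, so the sensors could not be compared with each other.

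STE50 (YCL032W), the adaptor of Ste11, had ratios of -3.36 on array 1 and 0.65 on array 2. Its mean of -1.36 ± 2.83 was past 2-fold, but the arrays lay on opposite sides of 0 and the difference of 4.01 between them was larger than in 94.5% of genes. Without the turn both arrays were negative and the mean was -2.00 ± 1.92, 4.01-fold lower. The value on array 1 is thus the part of STE50 that does not depend on the turn, and it was not matched in size on array 2 under either sign. STE11, the kinase held by Ste50, had no ratio.

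In the Sln1 branch, SLN1 (YIL147C), the osmosensing histidine kinase, had ratios of -1.21 on array 1 and -0.38 on array 2. Both were negative, and the mean was -0.80 ± 0.59, 1.74-fold lower, yet only 0.43 below the all-gene median. After each array was centred on its median, the arrays had -0.83 and 0.01, so the negative ratio then rested on array 1. Without the turn the mean was -0.41 ± 1.13.

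YPD1 (YDL235C), the phosphotransfer protein between Sln1 and Ssk1, had ratios of -1.84 on array 1 and 1.74 on array 2. These nearly cancelled, and the mean was -0.05 ± 2.53. With array 2 as deposited the values were -1.84 and -1.74, both negative and closer to each other than for any other component, with a mean of -1.79 ± 0.07, 3.45-fold lower. YPD1 and STE50 were the 2 of 7 components past 2-fold negative in that reading, in which 13.7% of all genes were, and none was past it as positive, beside 12.3% of all genes. SSK1, the receiver of the phosphate, had no ratio.

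PBS2 (YJL128C), the MAP kinase kinase, had ratios of 0.75 on array 1 and 0.23 on array 2. Its mean was 0.49 ± 0.37, 1.40-fold, level with SHO1. Without the turn it was 0.26 ± 0.69. HOG1 (YLR113W), the MAP kinase, had ratios of 1.22 on array 1 and -0.36 on array 2. Its mean was 0.43 ± 1.12, 1.35-fold, with the arrays on opposite sides of 0; with array 2 as deposited both arrays were positive and the mean was 0.79 ± 0.61, 1.73-fold. PBS2 had a positive mean under both readings of array 2, and so did HOG1. For each gene array 1 had the larger ratio in size, so its sign alone sets that of the mean in both readings.

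In order of the mean ratio, which is a difference between conditions and not a transcript level, the components ran SHO1, PBS2, HOG1, MSB2, YPD1, SLN1 and STE50. This order holds for the turned values; without the turn it ran HOG1, PBS2, SHO1, MSB2, SLN1, YPD1 and STE50. With the turn, each gap between neighbours in this order was smaller than the larger of the SDs of the pair, at most 0.29 of it. The Sho1 branch had a median of 0.31 over 3 measured genes and the Sln1 branch -0.42 over 2, but the Sho1 branch spanned -1.36 to 0.49 and so enclosed both Sln1 branch genes. Without the turn these medians were -0.33 and -1.10. The shared kinases had a median of 0.46, and 0.53 without the turn.

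**Figure D2:**
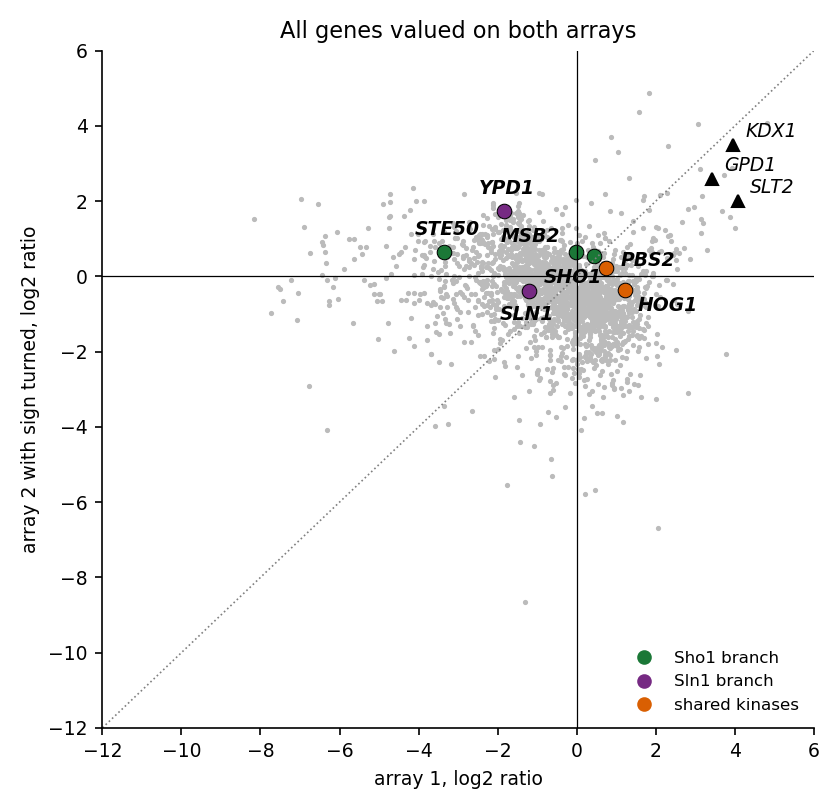
Log2 ratio on array 2 with its sign turned against array 1 for the 2254 genes valued on both (grey), with the 7 HOG pathway components in the colours of their branch and SLT2, GPD1 and KDX1 as triangles. The components lie within the main cloud of genes, whereas the triangles lie far out on the positive side of both arrays. The turn was read from SLT2 and KDX1 among others, so their positive place on array 2 follows from it. As deposited, each triangle gene has opposite signs on the arrays.

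The ratios of both arrays varied with the coding length of the gene, and the components cover most of that range. Across the 2174 genes with a length, the half-difference of array 1 and array 2 correlated with length at a Spearman's rho of 0.46, whereas their mean gave 0.03; genes are not independent replicates. With the genes divided by length into 10 bins, the medians of the shortest bin were -1.43 on array 1 and 0.57 on array 2, and YPD1, at 504 bp the shortest component, had the same pair of signs. In the bin that holds HOG1 (1308 bp) the medians were 0.25 and -0.63, again the signs of HOG1 itself. The other measured components did not match their bins in both signs. PBS2, for instance, had 0.75 and 0.23 in a bin with medians of 0.20 and -0.77. STE50 (1041 bp) and SHO1 (1104 bp) fell in neighbouring bins, where array 1 had medians of -0.42 and 0.02, yet STE50 had -3.36 there and SHO1 0.43. The median of each length bin was then removed within each array, which also centres the arrays. For this step the bins were drawn anew on each array, over all its genes with a length. The medians removed therefore differ from those above, and SHO1, for instance, went from 0.43 to 0.89 on array 1. The removal brought YPD1 to -0.48 and 1.16 and HOG1 to 0.95 and 0.22. HOG1 then had a mean of 0.59 ± 0.52 and the same sign on both arrays, PBS2 0.85 ± 0.31 and SHO1 0.96 ± 0.10, all below 2-fold. SLN1 went the other way, to opposite signs of -0.88 and 0.33, and its SD rose from 0.59 to 0.85. The SD of MSB2 rose from 0.47 to 0.74. STE50 kept arrays of opposite sign, -2.90 and 1.13. The part of length in the ratio of any 1 component was not tested.

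**Figure D3:**
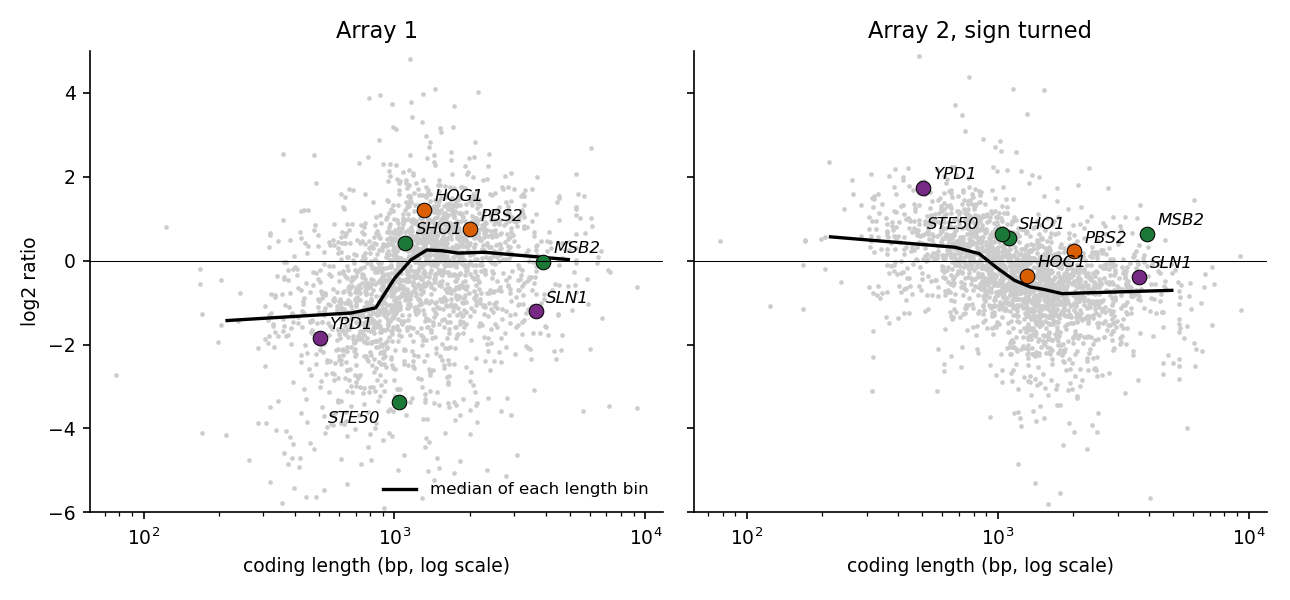
Log2 ratio against coding length (bp, log scale) on array 1 and on array 2 with its sign turned, with all genes in grey, the median of each of 10 length bins as a line and the HOG pathway components in colour; points beyond the vertical axis are not drawn. The line is higher for longer genes than for the shortest on array 1 and lower on array 2, and STE50 stands far below it on array 1.

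Of 10 other genes that act upstream of Pbs2 or, as SKN7, take phosphate from Ypd1, 4 had both ratios. None passed 2-fold, and the median was 0.19. CDC24, the exchange factor of Cdc42, had a mean of 0.34 ± 1.23 and BEM1, a polarity scaffold, 0.24 ± 1.57. CDC42, the GTPase of the Sho1 branch, had 0.02 ± 1.21, and SKN7, a response regulator that also receives phosphate from Ypd1, had 0.13 ± 0.31. All 4 were positive on array 1 and negative on array 2, so that without the turn the list median was 0.86 and BEM1 passed as positive at 1.11 ± 0.34. The kinase gene SSK2, the anchor gene OPY2 and the kinase gene STE20 had no ratio.

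Of 6 phosphatase genes, whose products or partners act on Hog1 or Pbs2, 5 had both ratios. NBP2, an adaptor that brings the phosphatase Ptc1 to Pbs2, passed as negative, with ratios of -0.63 and -2.54 and a mean of -1.58 ± 1.35. Without the turn its mean was 0.95 ± 2.24 and it did not pass. PTP3, a tyrosine phosphatase of Hog1, had 0.03 on both arrays. PTP2, the other tyrosine phosphatase, was valued on array 1 only, at 2.19. The list median was -0.11, and 0.64 without the turn.

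Downstream of Hog1, 4 of 11 kinases and transcription factors had both ratios and none passed, with a median of -0.11. RCK2, a kinase that Hog1 activates, had a mean of -0.41 ± 0.86 and TUP1, a corepressor that works with Sko1, 0.32 ± 1.51. Without the turn the median was 0.67 and TUP1 passed as positive at 1.07 ± 0.45. HOT1 and SKO1, genes of transcription factors under Hog1, had no ratio, nor had MSN2 and MSN4.

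Of 20 genes that osmotic stress raises through Hog1, 8 had no ratio, 2 had 1 ratio only and 10 had both. The values of the list below are those of these 10 genes. Among them 2 passed as positive and none as negative, beside 2.88% and 13.6% of all genes. The median was 0.52 (0.80 on array 1 and 0.70 on array 2), beside -0.37 over all genes. The means of the list spanned -0.44 to 3.00, a range that overlaps that of the pathway components. GPD1, the glycerol-3-phosphate dehydrogenase that begins glycerol synthesis, had ratios of 3.42 and 2.59, a mean 8.02-fold above 1. HXT1, a glucose transporter, had 3.19 and 1.41. GPP2 and GPP1, the phosphatases that complete glycerol synthesis, were chosen for mention after their values were seen. GPP2 had 0.81 and 0.95, a mean of 0.88 ± 0.10, and GPP1 had 0.01 and 0.89. STL1, the glycerol symporter, had no ratio, and neither had FPS1, the glycerol channel. RGC1, a regulator of Fps1, passed as negative at -1.50 ± 0.67; it was 1 of 2 genes with both ratios on the list of 5 for the channel and uptake. The deposited ratios of GPD1 and HXT1 have opposite signs, so without the turn they did not pass and their means were 0.41 ± 4.25 and 0.89 ± 3.26. RGC1 then had 0.47 ± 2.13 and did not pass either. TRX2, another gene of the target list, had deposited ratios of -1.79 and -1.50. Without the turn it passed as negative at -1.65 ± 0.21, as did 13.7% of all genes, and with the turn its mean was -0.15 ± 2.33.

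The mating and filamentation pathways share Ste11 and Ste50 with the Sho1 branch. Of 12 other parts of these pathways, subunits of the mating G protein among them, 3 had both ratios. KSS1, the MAP kinase of filamentation, passed as positive with ratios of 1.84 and 0.70, a mean of 1.27 ± 0.81. STE4, a subunit of the mating G protein, passed as negative at -1.49 ± 0.15. Without the turn neither passed, and KSS1 had 0.57 ± 1.80 and STE4 -0.10 ± 2.11. Another 6 parts were valued on 1 array only, among them STE7 at -4.08, STE12 at -4.49 and DIG1 at -4.58 on array 1, which were named after their values were seen. These 3 genes had no ratio on array 2. On array 1, 387 of 2428 genes had a ratio below -2. The rest of the 6 had smaller ratios. MSG5 had 0.42 on array 1, and on array 2 after the turn FUS3 had 0.12 and TEC1 -0.21.

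The Slt2 pathway acts after Hog1 when the wall is digested. Of 18 of its genes 6 had both ratios, 3 passed as positive and none as negative, beside 2.88% and 13.6% of all genes. The median was 0.91, beside -0.37 over all genes. SLT2 had ratios of 4.08 and 2.00, a mean of 3.04 ± 1.47, KDX1 had 3.96 and 3.48, and the surface sensor MID2 had 1.34 and 0.86. SLT2 and KDX1 are among the genes from which the turn of array 2 was read. Without the turn none of the 3 passed: SLT2 had 1.04 ± 4.30, KDX1 0.24 ± 5.26 and MID2 0.24 ± 1.56, the list median was 0.24, and ROM1, an exchange factor of Rho1, was negative past the limit at -1.10 ± 1.42. HOG1, the MAP kinase gene of the osmotic pathway, had a mean of 0.43 with the turn and 0.79 without it. The difference between HOG1 and SLT2 could not be tested with 1 replicate.

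**Figure D4:**
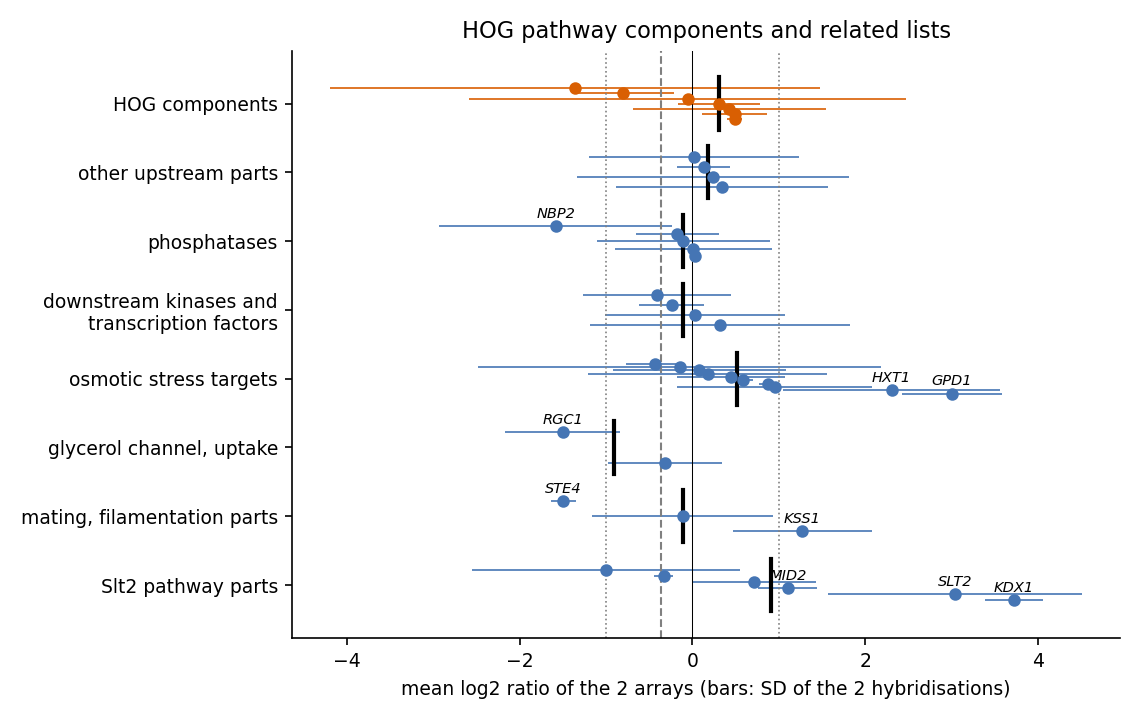
Mean log2 ratio of the arrays for the HOG pathway components (orange) and each related list (blue), with bars for the SD of the 2 hybridisations, a black line for the list median and a dashed line for the all-gene median of -0.37; genes past 2-fold with the same sign on both arrays are named. No HOG component is named, whereas GPD1, HXT1, SLT2, KDX1, MID2 and KSS1 are named on the positive side; none of these 6 passes without the turn.

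Several components changed sign with the treatment of the values. PBS2 was positive under each of the 7 readings drawn in the grid of treatments: with array 2 turned, as deposited, centred, rescaled, freed of the length medians, and on each array alone with array 2 turned. SLN1 was negative under all of these. The 7 readings reuse the same 2 values of each gene and are not independent. For PBS2 and SLN1, array 1 had the larger ratio in size, with the sign of array 2 after the turn. Their signs with array 2 turned, as deposited and on each array alone follow from that. SHO1 was positive under each but the one with array 2 as deposited, and HOG1 under each but the one from array 2 alone. STE50 was negative under each but array 2 alone, where it had 0.65. YPD1 ranged from -1.84 to 1.74. The grid leaves out array 2 alone as deposited, where PBS2 had -0.23 and SLN1 0.38, and the reading with every sign turned.

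**Figure D5:**
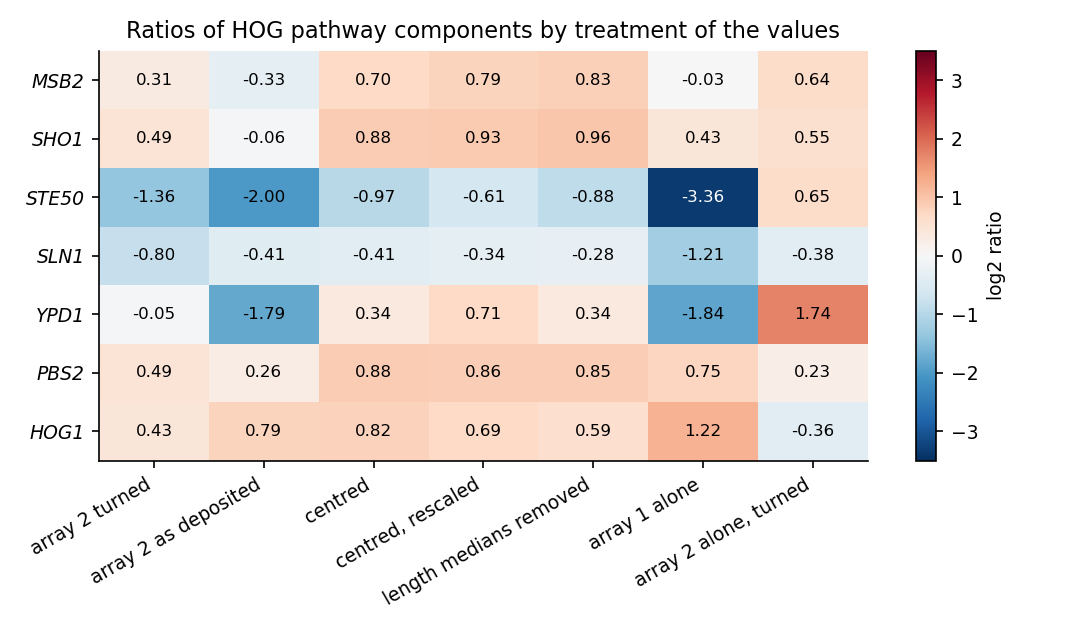
Log2 ratio of each measured HOG pathway component (rows) under 7 treatments of the values (columns), with red for positive and blue for negative ratios. PBS2 is positive and SLN1 negative in every column, and YPD1 and STE50 change most between columns.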

How the data were processed

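The series holds 2 two-colour arrays of 1 untreated and 1 zymolyase-treated RNA extract, per the labels a dye swap. The deposited log2 ratios were used as the authors gave them; the scanner, background correction, normalization and filter that left genes without a value are not given in the sources used here. The log base was read from the values: on array 1 all 387 ratios below -2 are the log2 of a whole multiple of 0.0001 to within the rounding of the deposited value, and on array 2 all 239 after turning the sign but 3 of 40 as deposited. Array 2 was therefore inverted at some step, which does not settle its direction. No spot intensities were used here, so the brightness of the spots is not known.

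The series' design text gives 1 culture, and the text attached to each sample gives more; the design text was followed. Of 6209 rows 2 are control spots. Gene names and coding lengths were looked up by locus tag in the RefSeq table of assembly R64, with a match for 5654 genes; the probes' build is not given, so no coordinates are printed. After the sign of array 2 was turned, each gene was given the mean and SD over the arrays with Python 3.11.15 and pandas 2.3.3. The rules were run on simulated arrays in which the direction of array 2 was known and the effects were larger than any mean of the components. That run does not show how the rules do on ratios as small as those here. The components and the 7 related lists were chosen with earlier results of these data known. Named are all components, list genes past 2-fold, and SLT2, GPD1, STL1, FPS1, PTP2 and PTP3. Of a list with no gene past 2-fold, up to 4 genes with the largest absolute means are named. Outside this rule, GPP1, GPP2, TRX2, ROM1, STE7, STE12, DIG1, MSG5, FUS3 and TEC1 were named after their values were seen. SSK2, OPY2, STE20, HOT1, SKO1, MSN2 and MSN4 were named for having no ratio. Alternatives were the unturned array 2, every sign turned, centring, rescaling, removal of length medians (10 bins), a 1.5-fold limit, 2-fold on each array, each array alone, genes with 1 value, and arrays within 1 of each other. The precision is limited by the number of arrays. The sequence features planned for the components were not analysed here.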

Additional observations from a re-analysis of the deposited data

How the results depend on the processing

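No paired analysis was possible because the arrays form 1 group. The limits are the unstated direction, the single culture and the unknown spot brightness. The cause of the shifts below was not tested, except that turning every sign reverses by construction. The values with array 2 as deposited were -0.33 for MSB2, the 7 components and the Sho1 branch, -0.060 for SHO1, 0.64 for the phosphatases, 0.25 for the osmotic stress targets, 0.0048 for the glycerol channel list, 0.24 for the Slt2 pathway, and 0.95 for NBP2 and 0.47 for RGC1, which changed sign; 2 components passed as negative, 2 related genes as positive and 277 of all genes as positive. With every sign turned they were -0.31 for MSB2, the components and the Sho1 branch, -0.49 for SHO1 and PBS2, 0.80 for SLN1, -0.46 for the shared kinases, -0.52 for the targets, 0.91 and -0.91 for the glycerol channel list and the Slt2 pathway, -3.00 for GPD1, 1.58 for NBP2, -1.27 for KSS1, -3.04 for SLT2, -2.30 for HXT1, -3.72 for KDX1, -1.10 for MID2, 1.49 for STE4 and 1.503 for RGC1, with 3 related genes positive and 6 negative, and 307 and 65 of all genes. Centring gave 0.88 for SHO1 and PBS2, 0.91 for the targets, -0.52 for the glycerol channel list, and 122 positive and 161 negative genes of all in place of 65 and 307; with rescaling these were 0.93 for SHO1, 0.79 for MSB2 and the Sho1 branch, 0.98, -0.54, 118 and 163. Removing the length medians gave 0.96 for SHO1, 0.83 for MSB2 and the Sho1 branch, 0.93 for the targets, -0.49 for the glycerol channel list, 1 negative related gene in place of 3, and 119 and 154 genes of all. A 1.5-fold limit passed 109 and 515 genes of all, 10 positive related genes in place of 6, and SLN1 as 1 negative component; 2-fold on each array left 38 and 104. Arrays within 1 of each other left 21 and 90 of all, 3 positive related genes, and -1.49 for the mating list, over 1 gene. Genes valued on 1 array raised the counts to 154 and 617, with 6 negative related genes. From 1 array alone the positive counts were 271 to 297 of all, 6 to 13 related and 1 component on either array, and the negative ones 757 to 859, 4 to 7 and 0 to 3; the targets lay at 0.79 to 0.89, the Slt2 pathway at 0.38 to 1.28 and the mating list at -1.60 to -0.21. No component passed as positive under any setting that used both arrays.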

Other observations

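The control spots bear on how closely the arrays matched. The spot named Arabidopsis had -1.15 on array 1 and -3.27 on array 2 after the turn, and the buffer spot named 3XSSC had 0.12 and -0.53.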
